A study of Homo sapiens with 9 samples.

Results

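The binding of CTCF and ZEB1 was followed through the 4 human HOX clusters, which carry the 38 HOX genes described here (10 each in HOXA and HOXB, 9 each in HOXC and HOXD). A peak belonged to a cluster when it overlapped the window drawn around it in hg19 coordinates, and peak strength was not used to choose it. The windows ran on chromosome 7 from 27130000 to 27290000 for HOXA (160 kb), on chromosome 17 from 46600000 to 46830000 for HOXB (230 kb), on chromosome 12 from 54330000 to 54450000 for HOXC (120 kb) and on chromosome 2 from 176955000 to 177060000 for HOXD (105 kb). They held 38 of the 47426 peaks in the 5 lists, of which 18 lay in HOXB, 9 in HOXA, 6 in HOXC and 5 in HOXD. Chromatin immunoprecipitation with sequencing (ChIP-seq) had been done on formaldehyde-fixed cells grown in the same medium. CTCF was profiled in unmodified MiaPaCa2 cells, a line from a pancreatic ductal adenocarcinoma. ZEB1 was profiled in unmodified MiaPaCa2 cells, in unmodified RKO cells, a line from a colon carcinoma, and in 2 clones of MiaPaCa2. The clone named WT came by dilution from cells electroporated with plasmids carrying Cas9 nickase. The clone named delta-Repeat came from cells that had received the nickase together with pairs of guide RNAs against repeated DNA upstream of the MIR200A and MIR200B genes. Each of these groups is a single sample with 1 peak list and each edited line is 1 clone, so differences between groups have no replicate spread behind them and none was tested. A single lot of the ZEB1 antibody served both clones, and a different lot was used for each unmodified line.

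HOX genes code for homeodomain transcription factors that give cells their identity along the head-to-tail axis. In each cluster they lie side by side in an order that mirrors where along this axis they are switched on, with the low-numbered paralogs, such as HOXA2 and HOXB1, on the anterior side and the group 13 paralogs on the posterior side. CTCF is a DNA-binding protein found at insulators and at the feet of chromatin loops, and its sites in HOX clusters are known to separate active from Polycomb-repressed genes. ZEB1 is a zinc-finger repressor of epithelial genes that drives the epithelial-to-mesenchymal transition and binds E-box motifs such as CACCTG. In the RefSeq gene order, coordinates rise from HOXA2 towards HOXA13 and from HOXB1 towards HOXB13. In HOXD they rise from HOXD13 towards HOXD1. In HOXC they rise from HOXC13 towards the group of HOXC4, HOXC5 and HOXC6, with no order among these genes read here. Peaks are therefore placed here by their distance along the window and not by gene, because no gene positions in hg19 were used.

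The starts of the HOX genes were searched for the motif of each factor. RefSeq promoters (GRCh38.p14, from 250 bases before to 50 bases after a start) were matched for 20 of the 38 genes, 9 of HOXA, 1 of HOXB, 2 of HOXC and 8 of HOXD, so mostly HOXA and HOXD are covered, in 27 promoter windows, since a gene such as HOXA3 has several starts. The ZEB1 E-box CACCTG, searched on both strands, stood in 1 of these 27 windows (3.70%), beside 20.6% of the 35116 promoters of all genes. No interval was computed for this share, and windows of the same gene are not independent. Repeated windows were dropped for the HOX genes but not for all genes, so no depletion is read from it. The core of the known CTCF motif, with its variable letters left free and searched on both strands, also stood in 1 of 27 (3.70%), beside 2.41% of all promoters, so this share is near that of all genes. Neither motif contains the other, and both matches lie in HOXA, on chromosome 7, on the strand of the gene (the minus strand). They are printed because they are the single matches of each motif, with the motif in capitals and its first base 52 bases before the start for HOXA7 and 56 bases before a start for HOXA10.
HOXA7: gcggagcgagacCACCTGtgaggactgctg
HOXA10: gcgcagccgCCACGAGATGGCgcacttccg
A match is a run of letters. Neither match was compared with the peaks, because the promoters are in GRCh38.p14 and the peaks in hg19, so whether a peak lies there is not known.

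CTCF had the largest number of peaks in the HOX windows, and also by far the longest list. It held 23 peaks there out of 31754 (0.0724%, exact Clopper-Pearson 95% interval 0.0459 to 0.109), while the windows make up 0.0201% of the summed chromosome lengths. That is 3.74 peaks per 100 kb in the windows and 1.04 per 100 kb over the genome, a ratio of 3.596. The same ratio was 6.90 for ZEB1 in RKO, from 10 peaks, 3.10 in MiaPaCa2, from 3, and 3.28 and 2.30 in the WT and delta-Repeat clones, from 1 each. Of the 23 peaks, 21 passed a stricter threshold (a fold enrichment of at least 5 and a −log10 q of at least 10), or 91.3% (72.0 to 98.9), beside 80.4% of all CTCF peaks. The fold enrichment is the authors' own value at the summit over the caller's background, and it is used here only within a list. HOX CTCF peaks had folds from 3.76 to 23.5 with a median of 12.04, and the median of the whole list was 10.8. There were 14 of 23 above the list's median, so in strength the HOX peaks as a set were spread through the list. All of these intervals cover counting error only.

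**Figure D1:**
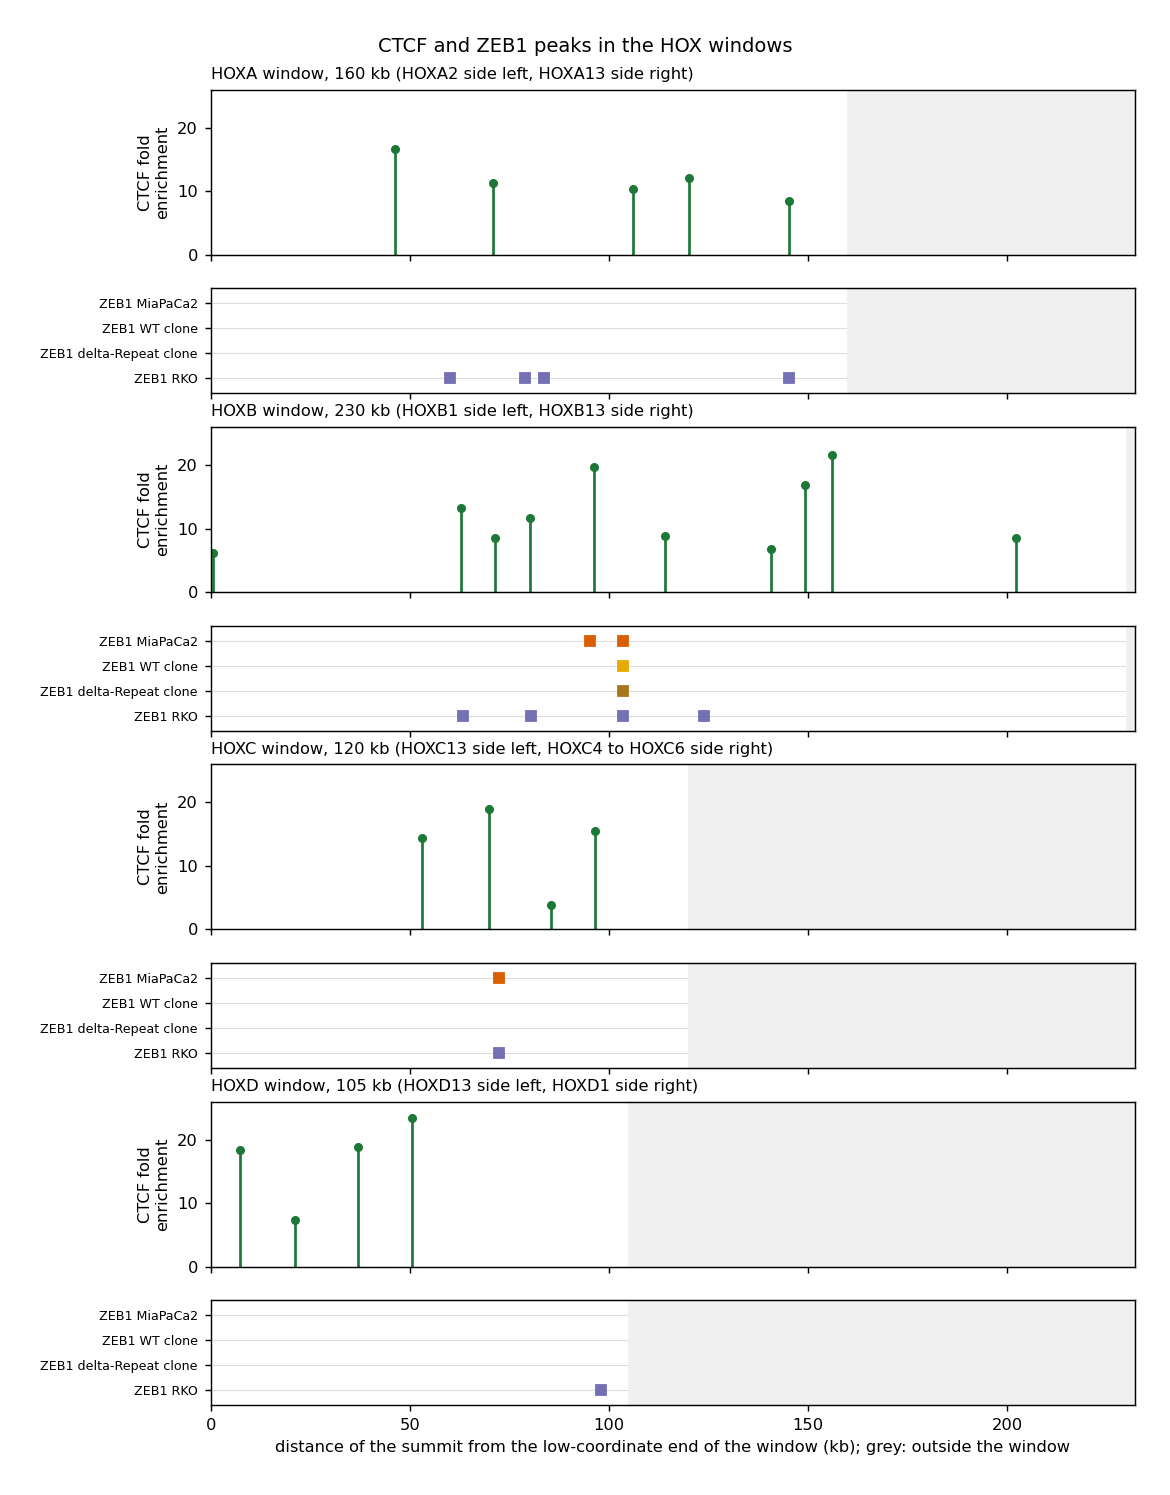
Peaks in the HOXA, HOXB, HOXC and HOXD windows by distance of the summit from the low-coordinate end (kb). Green stems give the authors' fold enrichment of each CTCF peak in MiaPaCa2 and squares mark the summits of ZEB1 peaks in each of the 4 ZEB1 lists, with no strength shown; HOXA has 5 CTCF peaks and ZEB1 peaks in RKO alone, and the HOXB window holds the 1 place with a square in every row.

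CTCF densities as high as in the HOX windows were found elsewhere in the genome, and the surroundings of the 4 clusters differed. In tiles of the window's own length laid end to end along every chromosome, 9.87% held at least the 5 CTCF peaks of HOXA, 2.48% at least the 10 of HOXB, 10.3% at least the 4 of HOXC and 8.02% at least the 4 of HOXD. HOXA stood alone: the 160 kb on either side of the window held 0 and 0 CTCF peaks, and the next CTCF peaks ended 230 kb below and began 326 kb above the window. Among tiles of this length with at least 5 CTCF peaks, 1.92% (36 of 1876) had no CTCF peak in either neighbouring tile. HOXC had 0 CTCF peaks in the equal stretch below it and 1 above, and HOXD had 2 below and 0 above. HOXB lay in a CTCF-rich stretch, with 9 peaks in the 230 kb below and 8 in the 230 kb above, against 10 inside.

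**Figure D2:**
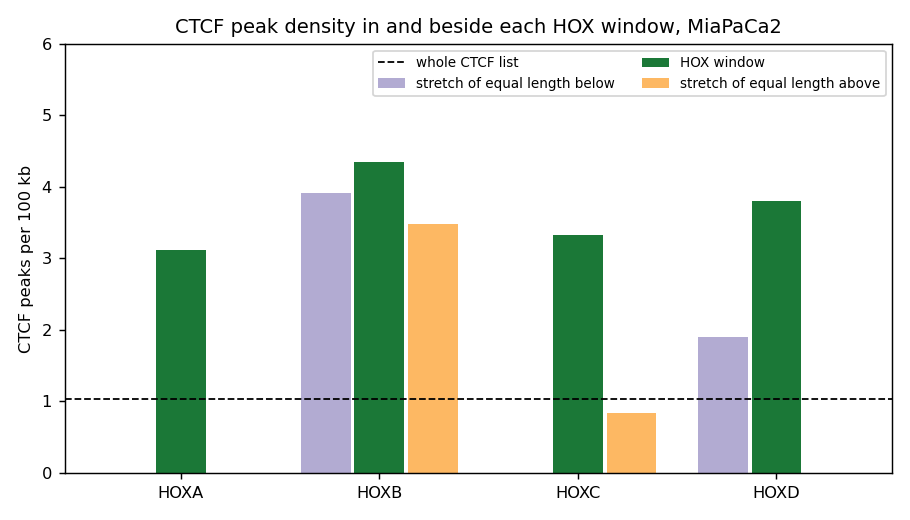
CTCF peaks per 100 kb in unmodified MiaPaCa2 cells in each HOX window (green) and in the stretches of equal length below and above it, with the density of the whole list as a dashed line. HOXA has no bar on either side, while the HOXB window (4.35 per 100 kb) and its flanks (3.91 and 3.48) have similar heights.

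HOXA, the cluster of HOXA2 to HOXA13, carried 5 CTCF peaks, all of moderate strength. The peak nearest the HOXA2 side ran from 27176031 to 27176411 and was the strongest, with a fold of 16.6 (−log10 q 52.7.) It lay above 79.6% of the CTCF list by fold. The next ran from 27200455 to 27201030 with a fold of 11.3 (−log10 q 44.2.) A peak from 27235803 to 27236268 had a fold of 10.4. The fourth, from 27249953 to 27250357, had a fold of 12.04. Nearest the HOXA13 side, a peak from 27274964 to 27275223 was the weakest of the cluster, with a fold of 8.50 (−log10 q 13.1.) By fold, then, both extremes of the cluster stood at its 2 ends, and 46.0 kb of the window before the first peak, on the side of the anterior genes, held no CTCF peak. Summits of neighbouring peaks lay 24.6, 35.2, 14.2 and 24.99 kb apart.

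ZEB1 in HOXA was listed in the colon line alone. RKO had 4 ZEB1 peaks in the window, and unmodified MiaPaCa2 cells and both clones had 0. Of the tiles of this length, 2.14% held at least 4 RKO peaks. The strongest RKO peak of any HOX cluster ran from 27208633 to 27209273, was 641 bp wide and had a fold of 20.8 (−log10 q 85.04). It ranked 167 of 7193 by fold and 113 by −log10 q. The fold of this peak itself was taken as a cut-off, so the share that follows is a description only. Of the 167 RKO peaks with a fold at least this high, 13 (7.78%) had no MiaPaCa2 counterpart, and this peak was 1 of them. Its nearest MiaPaCa2 summit lay 304872 bp away. Its nearest CTCF summit, in MiaPaCa2, lay 8121 bp away. The other RKO peaks here were weaker. A peak from 27189935 to 27190308 had a fold of 5.68, and 1 from 27213690 to 27213949 had a fold of 6.12. The fourth, from 27275093 to 27275353, had a fold of 5.77 (−log10 q 5.99.) None of these 3 passed the stricter threshold, which left 1 RKO peak in HOXA.

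HOXB, which runs from HOXB1 to HOXB13, carried 10 CTCF peaks, the most of any cluster. The first, from 46600359 to 46600685, had the lowest fold of the cluster at 6.18, with a −log10 q of 9.26, and was the 1 HOXB peak that failed the stricter threshold. It stood 62.4 kb from the next summit. Highest of all was the peak from 46755522 to 46756222, with a fold of 21.5 (−log10 q 84.5), above 92.1% of the list. The second, from 46695971 to 46696308, had a fold of 19.7. The third, from 46748991 to 46749433, had a fold of 16.9 and its summit lay 6.74 kb from that of the strongest peak, the shortest gap in any HOX window. The last peak, from 46801864 to 46802196, had a fold of 8.46 and followed a gap of 46.1 kb. The other 5 had folds between 6.83 and 13.3. CTCF strength thus did not grade in one direction from the HOXB1 to the HOXB13 side.

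One place in HOXB held ZEB1 in all 4 lists. In unmodified MiaPaCa2 cells the peak ran from 46703335 to 46703590 with a fold of 7.52 (−log10 q 10.9.) The WT clone had it from 46703345 to 46703609 with a fold of 9.05 (−log10 q 14.8.) In the delta-Repeat clone it ran from 46703334 to 46703533 with a fold of 5.33 (−log10 q 5.18.) RKO had it from 46703311 to 46703638 with a fold of 10.9 (−log10 q 21.1.) It was above 88.6% of the RKO list, 68.1% of the WT clone list, 62.4% of the MiaPaCa2 list and 16.3% of the delta-Repeat clone list by fold, so it stood high in RKO and low in the delta-Repeat clone. These ranks come from lists of unequal length and show no change between samples. The 4 summits lay within 32 bp of each other. Over 788 regions with exactly 1 peak in each ZEB1 list the median spread was 108 bp, and 10.0% were as close. The nearest CTCF summit was 7.31 to 7.34 kb away. The most recurrent ZEB1 place of the HOX clusters was thus not a CTCF place of unmodified MiaPaCa2 cells, where alone CTCF was profiled. It was the single HOX peak in each clone list.

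The other HOXB places of ZEB1 were each in 1 list. Unmodified MiaPaCa2 cells had a weak peak from 46695134 to 46695395 (fold 5.52, −log10 q 6.45). It ended 575 bp before the CTCF peak that begins at 46695971, and their summits lay 883 bp apart. RKO had 3 peaks of its own there. One from 46723589 to 46724362 was the widest ZEB1 peak in the HOX windows at 774 bp and had a fold of 9.95. Another, from 46662988 to 46663513, had a fold of 8.09. The third, from 46680198 to 46680415, had a fold of 5.03. With the shared place, RKO had 4 ZEB1 peaks in HOXB, a number that 3.51% of tiles reached, and MiaPaCa2 had 2, which 7.96% of tiles reached. The 230 kb below the window held 2 MiaPaCa2, 1 WT clone and 2 delta-Repeat clone ZEB1 peaks, and the 230 kb above held 1, 0 and 0. RKO had 0 on either side.

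**Figure D3:**
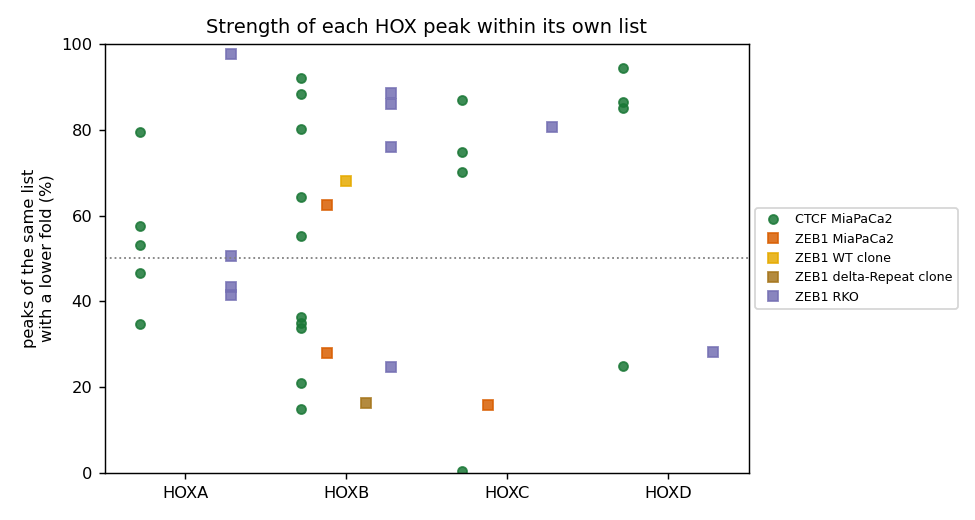
Share of peaks of the same list that have a lower fold (%), for every CTCF (circles) and ZEB1 (squares) peak of the HOX windows, by cluster. The dotted line is the middle of each list; the RKO peak of HOXA is near the top at 97.7%, 3 of 4 HOXD CTCF peaks lie above 85%, and the weakest HOXC CTCF peak is at 0.375%.

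HOXC, with HOXC13 at one end and HOXC4, HOXC5 and HOXC6 at the other, held 4 CTCF peaks, none of them in the part nearest HOXC13. The empty stretch on that side was 52.9 kb long. The first peak ran from 54382895 to 54383315 with a fold of 14.4. The strongest followed, from 54399619 to 54400131, with a fold of 19.0 (−log10 q 44.0.) A very weak peak ran from 54415391 to 54415664, with a fold of 3.76 (−log10 q 2.62), and ranked 31630 of 31754 by fold. The last, from 54426306 to 54426752, had a fold of 15.5 (−log10 q 47.4.) The HOXC row was therefore made up of 3 clear places and 1 near the weak end of the list. A single ZEB1 place lay between the strongest and the weakest of these CTCF peaks. In MiaPaCa2 it ran from 54402144 to 54402494 with a fold of 4.996 (−log10 q 4.98), above 15.8% of its list. In RKO it ran from 54402284 to 54402527 with a fold of 8.81 (−log10 q 15.5), above 80.6% of its list. The 2 summits lay 53 bp apart, and the nearest CTCF summit was 2406 bp from the MiaPaCa2 and 2459 bp from the RKO summit. Neither clone had a peak in HOXC. Of the tiles of HOXC length 12.6% held at least 1 MiaPaCa2 and 15.4% at least 1 RKO peak.

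HOXD, from HOXD13 to HOXD1, had the highest median CTCF fold of the 4 clusters, 18.6 over its 4 peaks. The median was 14.9 in HOXC, 11.3 in HOXA and 10.3 in HOXB. The peak nearest HOXD13 ran from 176962042 to 176962670 with a fold of 18.4. A weaker one, from 176975887 to 176976259, had a fold of 7.28 (−log10 q 10.3), just inside the stricter threshold. The third ran from 176991599 to 176992141 with a fold of 18.9. The fourth, from 177005073 to 177005905, was the strongest and widest CTCF peak of all HOX windows, with a fold of 23.5, a −log10 q of 84.96, a width of 833 bp and a place above 94.5% of the list. All 4 stood in the HOXD13 part of the window, and the last 54.1 kb, on the HOXD1 side, held none. ZEB1 was listed in HOXD in RKO alone, by 1 weak peak from 177052794 to 177053175 with a fold of 5.20 (−log10 q 6.05), in the part of the window without CTCF peaks and 47.5 kb from the nearest CTCF summit. Of the tiles of this length 14.0% held at least 1 RKO peak.

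Inside the windows, neighbouring CTCF summits lay a median of 24.8 kb apart in HOXA, 16.0 kb in HOXB, 15.5 kb in HOXC and 13.7 kb in HOXD. Gaps that leave a window are not among these, which removes long gaps by construction, so the medians are not compared with the 35.9 kb over all 31730 neighbouring pairs of the genome. The next summits outside lay 276 and 341 kb from the outermost HOXA summits, 16.6 and 66.5 kb from those of HOXB, 197 and 102 kb from those of HOXC and 9.19 and 314 kb from those of HOXD. The 3 gaps within HOXD were 13.7, 15.8 and 13.5 kb, so the longest was 1.17 times the shortest. Among all runs of 4 neighbouring CTCF peaks, with gaps of any length, 0.442% were as even. Runs inside a window lack long gaps by construction, so this share does not show that HOXD is unusually even. The HOXD ratio also depends on where the window ends: a CTCF peak lay 1.57 kb below it, and with its gap counted the ratio was 1.72. Within HOXC the gaps of 16.8, 15.5 and 11.1 kb had a ratio of 1.51, which 2.70% of runs matched or undercut, and the run includes the very weak peak. The same limit holds for this share, and with the nearer outside gap counted the HOXC ratio was 9.185. The HOXB window holds 9 gaps, and the longest was 9.26 times the shortest.

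**Figure D4:**
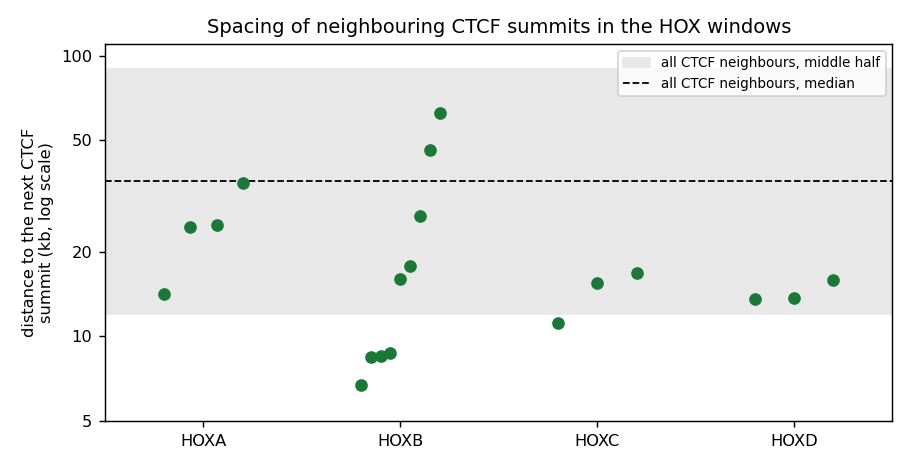
Distance between neighbouring CTCF summits (kb, log scale) in each HOX window, with points ordered by size, with the median (dashed) and middle range (grey) over all CTCF neighbours of the genome for scale. Gaps that leave a window are not drawn; the 3 HOXD gaps lie together between 13.5 and 15.8 kb, while HOXB gaps run from 6.74 to 62.4 kb.

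In unmodified MiaPaCa2 cells, the line in which both factors were profiled, CTCF and ZEB1 did not meet in any HOX cluster. Of the 23 CTCF peaks 0 overlapped a ZEB1 peak of this line (0 to 14.8%), beside 3.10% of all CTCF peaks, so a share at the background would also leave fewer than 1 meeting here. Of the 3 MiaPaCa2 ZEB1 peaks 0 overlapped CTCF (0 to 70.8%), beside 20.2% of that list. The 23 CTCF peaks also met 0 peaks of either clone, beside 0.995% (WT) and 1.57% (delta-Repeat) of all CTCF peaks. Over the whole clone lists 20.4% of WT clone and 22.7% of delta-Repeat clone peaks met CTCF. The 3 distances from a ZEB1 summit to the nearest CTCF summit were 0.883, 2.41 and 7.32 kb, and the median over the MiaPaCa2 list was 6.61 kb. With so few peaks, a difference from the rest of the list was not detectable.

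RKO ZEB1 peaks met CTCF places of MiaPaCa2 at 3 of 23 HOX CTCF peaks (13.0%, 2.78 to 33.6), beside 3.36% of all CTCF peaks. Counted from ZEB1, it was 3 of 10 RKO peaks (30.0%, 6.67 to 65.2), beside 14.8% of the RKO list, which lies inside the interval. Closest was the meeting on the HOXA13 side. There the RKO summit lay 24 bp from the summit of the CTCF peak from 27274964 to 27275223, and the peaks overlapped by 131 bp. In HOXB the RKO peak from 46680198 overlapped the CTCF peak from 46679907 to 46680318 (fold 11.7) by 121 bp with summits 200 bp apart. The other HOXB meeting, between the RKO peak from 46662988 and the CTCF peak from 46662650 to 46663155 (fold 13.3), had an overlap of 168 bp and summits 416 bp apart. Both HOXB meetings were thus between the sides of peaks whose summits lay apart. The CTCF list comes from MiaPaCa2 cells alone, so these are places and not joint occupancy in 1 line.

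Across the 4 ZEB1 lists the HOX peaks joined into 11 regions. Of these 8 were in RKO alone (72.7%, 39.0 to 93.98), beside 45.6% of 9306 regions over the genome. The 1 region in all 4 lists made up 9.09% (0.230 to 41.3), beside 9.84%. Of the 10 RKO peaks 2 had a MiaPaCa2 counterpart (20.0%, 2.52 to 55.6), beside 39.1% of the RKO list, in which 60.9% had none. Of the 3 MiaPaCa2 peaks 2 had an RKO counterpart, beside 57.4% of that list. The single peak of each clone was also a MiaPaCa2 peak, as were 95.2% of all WT clone and 86.6% of all delta-Repeat clone peaks. Of the 3 MiaPaCa2 peaks 1 was in both clones, while the WT clone list holds 29.3% and the delta-Repeat clone list 38% of all MiaPaCa2 peaks. Each background set beside an interval here lies inside it. As a share of its own list, HOX made up 0.139% of RKO peaks (0.0667 to 0.256), 0.0624% of MiaPaCa2 peaks (0.0129 to 0.182), 0.0660% of WT clone peaks (0.00170 to 0.367) and 0.0463% of delta-Repeat clone peaks (0.00120 to 0.258). The intervals of RKO and MiaPaCa2 overlap, but they cover counting error within each list only and do not compare the lines. The RKO list is also longer, and its read depth is unknown from the lists, as is that of the others. The part of depth and antibody lot in the larger RKO number was not tested.

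Past the stricter threshold, 5 of the 10 RKO HOX peaks were left (50.0%, 18.7 to 81.3), beside 41.0% of the RKO list. These were the strongest HOXA peak, 3 of the 4 HOXB peaks and the HOXC peak. In MiaPaCa2 1 of 3 was left, beside 41.9%, and it was the HOXB place found in every list. The WT clone's single peak passed, beside 51.9% of its list, and that of the delta-Repeat clone did not, beside 48.9%. At this threshold the recurrent HOXB place was thus listed in 3 of the 4 samples, and HOXD had no ZEB1 peak in any.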

How the data were processed

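Peak lists of 5 of the 9 samples were used, and the other 4, input DNA, were not analysed here. Per the submitters' processing notes, MACS2 2.1.0.20150731, Bowtie2 2.2.6 and SAMtools were used, with GRCh37 (hg19) as the build. The sources used here give neither the control of a list nor whether libraries were pooled. Each deposited list gives a peak's place, a fold enrichment (a linear ratio), a p-value and a q-value as −log10, and a score that was not used, all as the authors' caller wrote them. Read depth is unknown.

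Peaks overlapping a HOX window by at least 1 bp were taken, with starts counted from 1, using scipy 1.17.1, pandas 2.3.3, numpy 2.4.6, matplotlib 3.10.9 and Python 3.11.15. Code for overlaps and counts was tested on simulated data. A chromosome's length was its largest peak end. The windows and lists were chosen with earlier results of these data known. Named peaks were every ZEB1 peak, every CTCF peak that meets one, and in each window the first, last, weakest and 3 strongest CTCF peaks. The HOXA peak from 27235803, equal flanks, evenness of gaps and empty neighbouring tiles were chosen after the values were seen. Tile shares for ZEB1, the spread of ZEB1 summits and the share of strong RKO peaks without a MiaPaCa2 counterpart were also not planned beforehand. Gene names and order came from RefSeq (GRCh38.p14), where 38 of 38 symbols matched. Other genes were not looked up, as this needs hg19 gene positions. Alternatives were a stricter threshold, 50% overlap of both peaks, summits within 100 bp, peaks under 1 kb apart joined, windows widened by 50 kb, and ZEB1 lists of equal length.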

Additional observations from a re-analysis of the deposited data

How the results depend on the processing

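No paired analysis was possible because every condition is a single sample. Of 76 values recomputed, 59 stayed within 1.5 times the reported count, or for the median CTCF fold within its spread over the HOX peaks. Of these 59, 19 could not have moved: counts of 0 under settings that only remove peaks or overlaps, among them most of the absence of CTCF and ZEB1 meetings in MiaPaCa2, and the WT clone under its own list length. The 40 not fixed in this way include all CTCF counts per cluster, and the 11 ZEB1 regions under other overlap rules. Some of these were still fixed by spacing. Joining peaks under 1 kb apart could not change a CTCF count, as the shortest gap between summits was 6.74 kb. Widening by 50 kb could add no CTCF peak to HOXA or HOXC, where the next ones lay at least 78.8 kb outside. The other 17 were ZEB1 counts. With the stricter threshold, MiaPaCa2 had 1 peak in HOXB and 0 in HOXC, RKO had 1 in HOXA and 0 in HOXD, and the delta-Repeat clone had 0 in HOXB. With ZEB1 lists of equal length (the 1515 peaks of highest −log10 q), MiaPaCa2 had 0 in HOXB and 0 in HOXC, RKO had 1 in HOXA, 0 in HOXC and 0 in HOXD, and the delta-Repeat clone had 0 in HOXB. Joined ZEB1 regions under these 2 settings were chosen after seeing the data. The stricter threshold left 5 regions, 0 of them in all 4 lists and 4 in RKO alone, and equal list lengths left 4, with 0 in all 4 lists and 3 in RKO alone. Both settings remove weaker peaks by construction. Unknown depth limits every statement on an absent peak.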
